A study of Mus musculus with 2 samples.

Results

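Acta2, Actg2, Tagln, Cnn1, Lmod1, Tpm2, Myl9 and Myh11 encode parts of the contractile apparatus of smooth muscle. They were taken by symbol as 8 of the 31053 genes in the count matrices of 2 spatially barcoded sections, and all 8 were found in both. The frozen sections were cut from calvarial bone, which forms the roof of the skull, of mice at day 7 after a defect had been made in it. In the Blank group the defect was left empty of collagen/nHA material, and in the Col_nHA group that material was placed in it. The labels state neither strain nor age nor the number of animals, and no genetic change is named for either group. With 1 section per group no difference has a replicate check, so no p-value is given, and every interval is an exact 95% interval that covers counting error only.

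Smooth muscle contracts when calmodulin, bound to calcium, switches on a kinase that phosphorylates the regulatory light chain of myosin, which then pulls on filaments of actin. Tropomyosin, calponin and transgelin lie along those filaments, and leiomodin helps to build them. The cells of vessel walls express the full set, and the myofibroblasts of a healing wound, which contract and lay down matrix, express several of the same genes, Acta2 being their usual marker. Myh11 is widely used as the marker of differentiated smooth muscle, while Tpm2 is also a tropomyosin of skeletal muscle. Many of these genes are driven by serum response factor, which binds a short DNA element called the CArG box together with myocardin or its relatives.

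Spots were the barcodes with at least 3667 unique molecular identifiers (UMIs) in Blank and 4690 in Col_nHA. That left 2249 and 2471 of the 4992 array barcodes that both sections share, with a median of 9733 and 13815 UMIs per spot, and 118 and 101 spots lay within 10% of the threshold. A spot can hold several cells. UMIs were summed over the spots of a section (30705849 in Blank and 40202268 in Col_nHA) and given as CPM, counts scaled to a common total for both sections, and ratios are Col_nHA over Blank. UMIs count captured transcripts and were not divided by gene length. Markers of bone were present beside those of other tissues. The 8 osteoblast genes, none of them at 0, held 1029 CPM in Blank and 624 CPM in Col_nHA, while 12 skeletal muscle genes, again with none at 0, held 6184 and 14793 CPM. Skin and choroid plexus genes held 2708 and 12137 CPM in Blank and 1041 and 141 CPM in Col_nHA. In Col_nHA the choroid plexus gene Ttr held only 0.647 CPM and Kcne2 had no UMI. The choroid plexus sum there thus came from other genes of the list and is not read as that tissue.

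The 8 genes together held 45244 UMIs in Blank and 99753 in Col_nHA. That is 1473 and 2481 CPM, a ratio of 1.68 (1.67 to 1.70). A spot can hold more RNA of a gene because more of its cells make it or because each cell makes more, and in these data the possibilities cannot be told apart. The 2-fold calls cover genes that reached 10 CPM in at least 1 section, which 7 of the 8 did, and each of those 7 reached it in both sections. Cnn1 and Actg2 were at least 2-fold higher in Col_nHA, 2 of 7, beside 1.83% of the 9855 genes at that level. None was at least 2-fold lower, beside 3.40% of all genes. Across the 8 genes, Lmod1 included, 7 ratios lay above 1 and that of Myh11 lay below. The median log2 ratio was 0.67, while over the 9855 genes it was 0.015 with quartiles of -0.18 and 0.19.

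**Figure D1:**
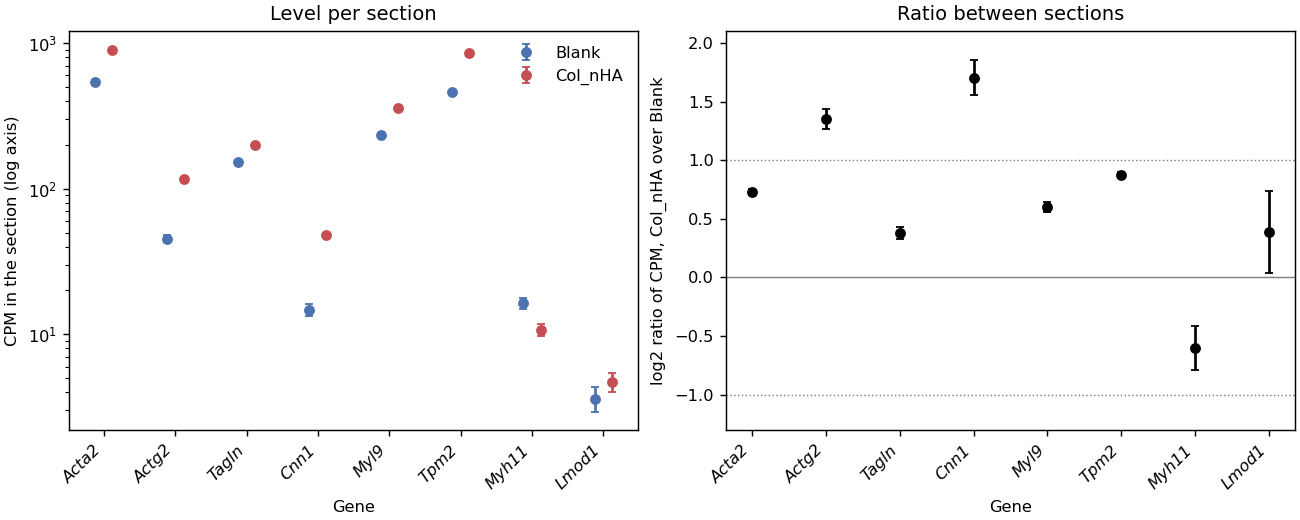
The left panel plots each gene's level in CPM on a log axis in the Blank and Col_nHA sections (1 section each), and the right panel plots the log2 ratio of Col_nHA over Blank, with bars for the exact 95% counting interval and dotted lines at 2-fold. Cnn1 at 1.70 and Actg2 at 1.35 lie above the upper dotted line, and Myh11 at -0.60 is the gene below 0.

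The actins were both more abundant with the material. Positions are on GRCm38.p6. Acta2 (chr19:34240336-34255585, ENSMUSG00000035783) encodes smooth muscle alpha-actin, and it had 16605 UMIs in Blank and 36009 in Col_nHA. Its level was 541 CPM (533 to 549) in Blank and 896 CPM (886 to 905) in Col_nHA, a ratio of 1.66 (1.63 to 1.69). Acta2 ranked 240 among all genes by CPM in Blank and 166 in Col_nHA. Actg2 (chr6:83512909-83536251, ENSMUSG00000059430) encodes gamma-actin of visceral smooth muscle. It had 1395 and 4652 UMIs, or 45.4 and 116 CPM, a ratio of 2.55 (2.40 to 2.71). The actin genes resemble one another closely in coding sequence, and how the counting dealt with reads that match more than 1 of them was not examined.

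Among the genes whose proteins bind the actin filament, the ratios ran from 1.30 for Tagln to 3.26 for Cnn1. Cnn1 (chr9:22099221-22109221, ENSMUSG00000001349) encodes calponin 1, which restrains the myosin ATPase. It stood at 14.7 CPM in Blank from 450 UMIs and at 47.7 CPM in Col_nHA from 1919, and its ratio of 3.26 (2.94 to 3.62) was the highest of the 8. Tagln (chr9:45929628-45936058, ENSMUSG00000032085) encodes transgelin, also called SM22. Tagln had 4710 and 8022 UMIs, or 153 and 199.5 CPM, a ratio of 1.30 (1.25 to 1.35). The interval of the Cnn1 ratio lay wholly above that of Tagln.

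Tpm2 (chr4:43513726-43523583, ENSMUSG00000028464) encodes beta-tropomyosin. Its 14244 and 34161 UMIs gave 464 and 849.7 CPM, a ratio of 1.83 (1.80 to 1.87). Lmod1 (chr1:135324813-135368065, ENSMUSG00000048096), the leiomodin of smooth muscle, was the rarest of the 8 with 110 and 188 UMIs. At 3.58 CPM (2.94 to 4.32) and 4.68 CPM (4.03 to 5.39) it did not reach the 10 CPM minimum, and its ratio of 1.31 had a wide interval of 1.03 to 1.67.

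The myosin genes went opposite ways. Myl9 (chr2:156775408-156781657, ENSMUSG00000067818) encodes the regulatory light chain of smooth muscle myosin, the chain that the kinase phosphorylates. It had 7230 and 14370 UMIs, or 235 and 357 CPM, a ratio of 1.52 (1.48 to 1.56). Myh11 (chr16:14194527-14292188, ENSMUSG00000018830), the heavy chain of the same motor, had 500 UMIs in Blank and 432 in Col_nHA. Its level was 16.3 CPM (14.9 to 17.8) in Blank and 10.7 CPM (9.76 to 11.8) in Col_nHA, a ratio of 0.660 (0.579 to 0.752), and the intervals of the levels did not overlap. With the mean of per-spot CPM, which weights spots equally, its log2 ratio was -1.02 in place of -0.60, past 2-fold. Per 100 UMIs of Acta2 in the same section, there were 3.01 (2.75 to 3.29) UMIs of Myh11 in Blank and 1.20 (1.09 to 1.32) in Col_nHA. Tagln and Myl9 also had fewer UMIs per 100 of Acta2 in Col_nHA, at 28.4 and 22.3 for Tagln and at 43.5 and 39.9 for Myl9. On the same scale Cnn1 stood at 2.71 in Blank and 5.33 in Col_nHA, Actg2 at 8.40 and 12.9 and Tpm2 at 85.8 and 94.9.

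RefSeq promoter windows on GRCm38.p6, from 250 bases before to 50 after a transcript start, were given for Acta2, Cnn1, Myl9, Lmod1 and Tpm2, and Tagln, Actg2 and Myh11 are named only. They were searched on both strands for the CArG box, either in its strict form or with 1 letter other than A or T allowed in its core. Among the 32851 windows of that length in the mouse table, 1.63% held the strict form and 9.98% held at least the looser form. The strict form occurred in 1 of the 5 windows and the looser form in 2. The stretches below are shown because they hold these boxes, which are in capitals. The Acta2 stretch is chr19:34255374-34255482 on the minus strand, inside the outer limits of the gene but before the start that the table uses, with boxes beginning 84 and 34 bases before it. The Myl9 stretch is chr2:156775278-156775399 on the plus strand, with its strict box beginning 161 bases before the start and a looser box at 99.
Acta2: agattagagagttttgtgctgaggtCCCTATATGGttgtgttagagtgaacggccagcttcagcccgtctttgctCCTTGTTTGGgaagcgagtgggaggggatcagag
Myl9: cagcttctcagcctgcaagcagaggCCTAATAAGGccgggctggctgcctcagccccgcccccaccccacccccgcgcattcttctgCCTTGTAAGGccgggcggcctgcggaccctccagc
A match is a description of the letters, and no match says only that they are absent from that window.

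The genes differed in how widely they were spread over the spots. Acta2 was found nearly everywhere, with a UMI in 85.8% of Blank spots and 94.1% of Col_nHA spots at full depth, and its level ran from 0 through a median of 314 to 5040 CPM over the Blank spots. In Col_nHA the Acta2 median was 600.2 and the highest spot 4547 CPM. Since the sections differ in depth, each spot was also thinned to 2000 UMIs. Acta2 then had a UMI in 51.0% of Blank spots (48.9 to 53.1) and 66.2% of Col_nHA spots (64.3 to 68.1). Tpm2 followed at 45.5% and 54.1%, Myl9 at 28.8% and 41.6%, and Tagln at 22.3% and 28.2%. Actg2 was found in 7.25% of Blank spots (6.21 to 8.40) and 18.7% of Col_nHA spots (17.1 to 20.2), and Cnn1 in 2.31% (1.73 to 3.02) and 7.89% (6.86 to 9.03). For all 6 of these genes the share was higher in Col_nHA at equal depth. Myh11 was the reverse, in 3.82% of Blank spots (3.07 to 4.70) and 1.62% of Col_nHA spots (1.16 to 2.20). Lmod1 was found in 0.800% and 0.728%, with overlapping intervals.

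Barcodes below the threshold give a view of RNA that lay outside the counted spots. Thinned to 500 UMIs, with 186 shallower ones left out in each section, these barcodes had a UMI of Acta2 in 15.1% of cases in Blank and 27.4% in Col_nHA, while the spots at that depth had one in 18.8% and 31.8%. Tpm2 in Col_nHA was found in 29.3% of these barcodes and 24.7% of the spots, so the spots were not above them. For Myh11 the corresponding shares were 0.626% and 1.16% in Blank and 0.471% and 0.526% in Col_nHA. A single UMI of these genes in a spot is therefore not read here as a cell that expresses them, and what the low barcodes lay over was not examined.

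**Figure D2:**
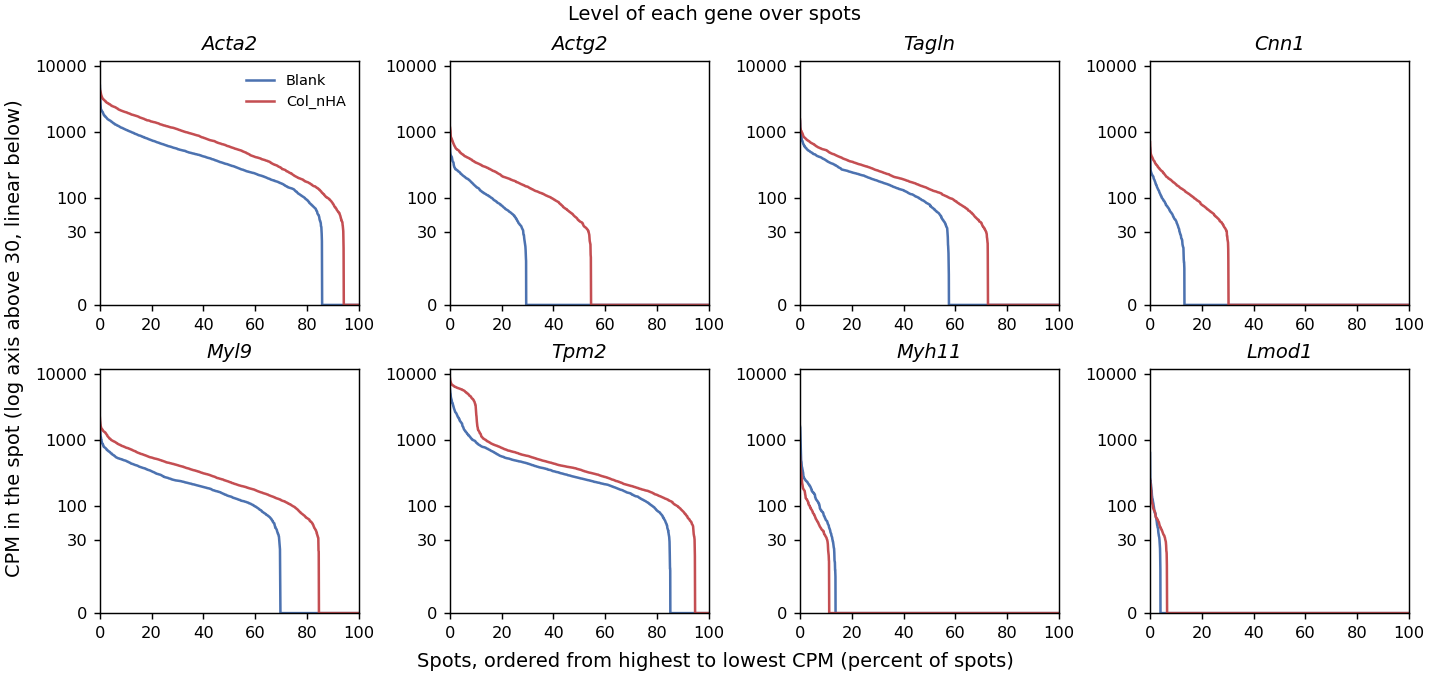
Each panel orders the spots of a section from the highest to the lowest CPM of a gene, as percent of spots on the x axis, with CPM on a log axis above 30 and a linear one below, for Blank and Col_nHA. Acta2, Tagln and Myl9 decline smoothly, Tpm2 in Col_nHA has a plateau over about the first 10% of spots, and Myh11 is found in 13.7% of Blank and 11.3% of Col_nHA spots at full depth.

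Unevenness was measured as the squared coefficient of variation over spots in excess of counting noise. Myl9, Tagln and Acta2 were the most even of the 8, at 0.906, 0.942 and 0.992 in Blank and 0.872, 0.983 and 0.983 in Col_nHA. Myh11 was far more uneven, at 8.21 in Blank and 6.39 in Col_nHA. Lmod1, the rarest of the 8, was above Myh11 in Blank at 11.1 and below it in Col_nHA at 2.18. Each of the 8 was above the median over genes with at least 10 CPM, which was 0.237 in Blank and 0.216 in Col_nHA. The 10% of spots with the highest Tpm2 level held 45.9% of its UMIs in Blank and 59.6% in Col_nHA, from 9.15% and 8.81% of all UMIs. For Acta2 the corresponding shares were 42.8% and 39.1%, from 15.4% and 13.3% of all UMIs. The single spot with the most Myh11 in Blank held 23 UMIs of it, and the highest spot in Col_nHA held 11.

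Over all spots the genes fell into a group that moved together and 3 genes that correlated little with it. Pearson correlations were taken between log(1 + counts per 10000) over the 2249 Blank and 2471 Col_nHA spots, which share a library within each section and differ in depth. They describe these spots, and the grouping was made after the values were seen. Among Acta2, Actg2, Tagln, Cnn1 and Myl9 the 10 pairs lay from 0.21 to 0.50 in Blank with a median of 0.31, and from 0.46 to 0.71 in Col_nHA with a median of 0.56. The highest pair was Acta2 with Tagln in Blank, at 0.50, and Acta2 with Myl9 in Col_nHA, at 0.71. The 15 pairs between these 5 and Tpm2, Myh11 or Lmod1 lay from -0.02 to 0.15 in Blank and from -0.07 to 0.09 in Col_nHA. Such low values in sparse counts are no finding in themselves. Cnn1 and Myh11 had about as many UMIs in Blank, 450 and 500, and yet Acta2 correlated with Cnn1 at 0.27 and with Myh11 at 0.05.

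**Figure D3:**
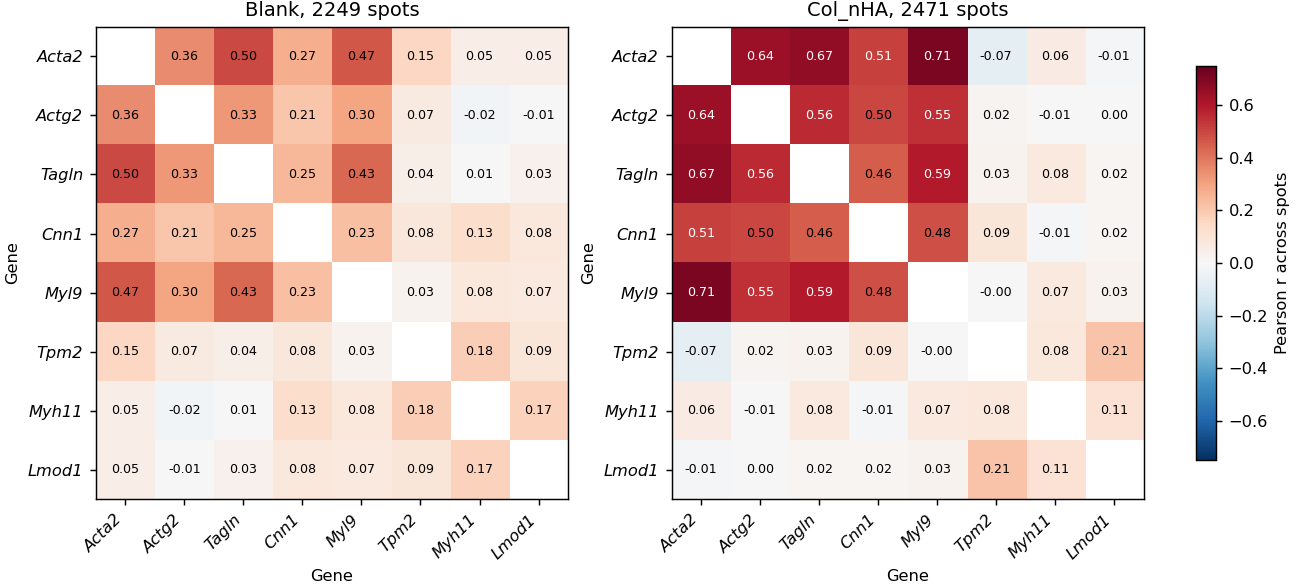
Each cell gives Pearson's r across spots between log(1 + counts per 10000) of a pair of genes, in Blank (2249 spots) and Col_nHA (2471 spots). The upper left block of Acta2, Actg2, Tagln, Cnn1 and Myl9 runs from 0.21 to 0.50 in Blank and from 0.46 to 0.71 in Col_nHA, and its pairs with Tpm2, Myh11 and Lmod1 stay at or below 0.15.

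The place of Tpm2 depended on the spots of other tissues. Spots were left out where the skeletal muscle, skin, fat, nerve and choroid plexus lists together took over 2% of UMIs, which kept 1580 Blank spots (70.3%) and 2153 Col_nHA spots (87.1%). This setting was chosen for the correlations after the data were seen. Among the spots kept, Tpm2 correlated with the 5 genes at 0.19 to 0.35 in Blank and 0.41 to 0.60 in Col_nHA, and highest with Acta2 in each. Over all spots the value for Tpm2 with Acta2 was 0.15 in Blank and -0.07 in Col_nHA, where the rank correlation of the same pair was 0.23. Myh11 did not follow: without those spots it correlated with Acta2 at 0.06 in Blank and 0.07 in Col_nHA. The 10 pairs among the 5 genes were little moved, at 0.26 to 0.53 and 0.44 to 0.67.

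The spots with most of a single gene showed the division in part. In the 225 Blank and 247 Col_nHA spots highest in Acta2, the levels of Tagln, Actg2, Cnn1 and Myl9 were 2.91 to 7.50 times those of the other spots, and Cnn1 in Col_nHA was the highest of these at 191.8 against 25.6 CPM. Tpm2 was at 0.999 times (0.954 to 1.05) in Blank and 0.855 times (0.827 to 0.884) in Col_nHA in those spots. Myh11 was at 1.82 times (1.47 to 2.23) in Blank and 1.17 times (0.888 to 1.53) in Col_nHA, and Lmod1 at 1.71 times (1.05 to 2.68) and 1.93 times (1.34 to 2.73). Lmod1 in both sections and Myh11 in Blank were thus also higher where Acta2 was highest, though by less than Tagln, Actg2, Cnn1 and Myl9. In the spots highest in Myh11, the level of Lmod1 was 5.37 times (3.44 to 8.21) that elsewhere in Blank and 2.16 times (1.48 to 3.09) in Col_nHA. Acta2 in the same spots stood at 0.891 and 1.10 times the level elsewhere.

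Lists of marker genes were used to ask which other transcripts lay in the same spots, taking for each list the 10% of spots with the highest share of UMIs in it. Over the lists, 17 to 266 Blank spots and 2 to 289 Col_nHA spots lay within 10% of the lowest share taken, so these are ranges and not tissue types. Skeletal muscle genes marked where Tpm2 was highest. Tpm2 stood at 2246 CPM in the spots rich in them and 283 CPM elsewhere in Blank, 7.93 times (7.67 to 8.20), and at 5737 and 378 CPM in Col_nHA, 15.2 times (14.8 to 15.5). Lmod1 was higher there as well, at 3.70 and 5.10 times, though not only there. In spots rich in fat genes it was at 5.82 and 2.79 times. With nerve and endothelial genes it was at 3.64 and 3.39 times in Blank, while both Col_nHA intervals took in equality. Acta2 was lower in the muscle-rich spots, at 0.555 times (0.518 to 0.594) in Blank and 0.139 times (0.127 to 0.152) in Col_nHA, and Actg2 at 0.298 and 0.031 times. Muscle-rich spots in Col_nHA thus held much Tpm2 and little of either smooth muscle actin, while in Blank they held 313 CPM of Acta2. The lowest skeletal muscle share taken was 1.504% of UMIs in Blank and 7.978% in Col_nHA, so these sets were not alike. What part that had in the difference between the sections was not tested. The 170 Blank and 279 Col_nHA spots with over 2% of UMIs in skeletal muscle genes held 41.7% and 61.2% of the Tpm2 UMIs, 24.5% and 34.0% of those of Lmod1 and 19.6% and 17.8% of those of Myh11. They held 4.36% and 1.55% of the Acta2 UMIs.

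The comparison between sections was therefore repeated within and outside these spots. Outside the muscle spots the Tpm2 ratio was 1.25 (1.21 to 1.28), from 293 and 365 CPM, and within them it was 2.14 (2.08 to 2.20). For Lmod1 the ratio outside was 1.17, with an interval of 0.876 to 1.56 that included 1. Acta2 was higher in Col_nHA outside muscle at 1.74 (1.71 to 1.78) and lower within it at 0.469 (0.419 to 0.524). The muscle spots of the sections were not matched for muscle share, and its part in the ratios within them was not tested. In spots where the 5 lists of other tissues together took at most 2% of UMIs, Acta2 had a ratio of 1.60 (1.57 to 1.63). Actg2 stood at 2.47 (2.32 to 2.63) there and Cnn1 at 3.28 (2.93 to 3.67). In the same spots Tagln stood at 1.22 (1.18 to 1.27), Myl9 at 1.43 (1.39 to 1.48) and Tpm2 at 1.29 (1.25 to 1.33). These 6 were still higher in Col_nHA. Myh11 was still lower, from 12.2 and 9.79 CPM, but nearer to 1, with a ratio of 0.803 (0.685 to 0.942).

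**Figure D4:**
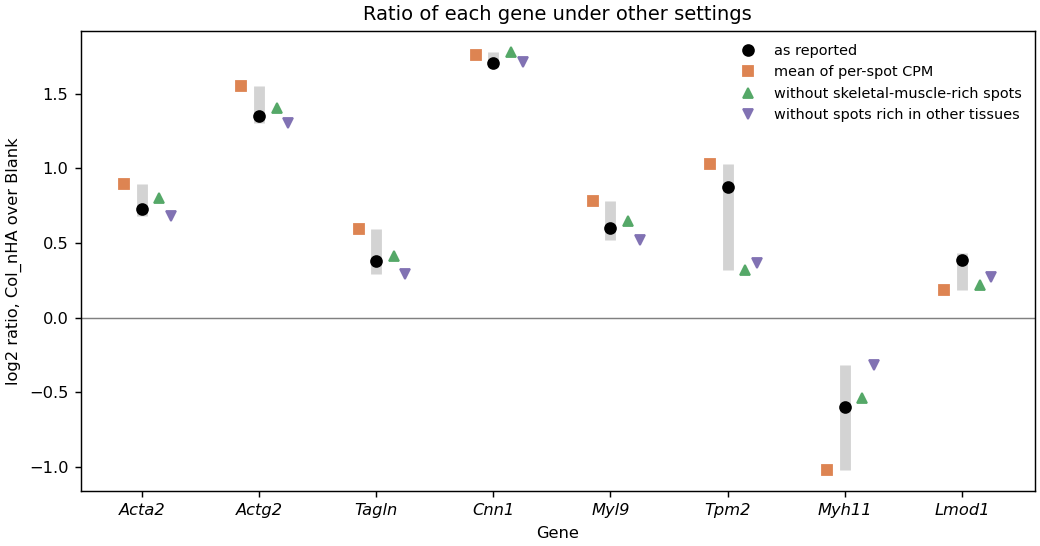
Points give each gene's log2 ratio of Col_nHA over Blank as reported, with the mean of per-spot CPM, and without the spots rich in skeletal muscle or in any other tissue, and grey bars span all 10 settings tried. Tpm2 drops from 0.87 to 0.32 without the muscle spots, Cnn1 stays between 1.68 and 1.78, and Myh11 stays below 0.

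Myh11 was higher in spots rich in genes of vessels, fat and nerve, and also in those rich in skeletal muscle genes, at 3.22 and 2.07 times. It was not confined to these lists. In fibroblast-rich spots Myh11 was at 1.93 and 1.64 times, and in spots rich in the regulator genes described below at 1.67 and 2.84 times. In skin-rich spots Myh11 was at 1.57 times in Blank and 0.402 times in Col_nHA, and for the choroid plexus list at 0.489 and 2.46 times. Its level in pericyte-rich spots, pericytes being the contractile cells around small vessels, was 41.4 CPM against 13.8 CPM elsewhere in Blank and 37.1 against 7.69 CPM in Col_nHA, the latter 4.83 times (3.94 to 5.90). In endothelium-rich spots it was 4.69 times (3.88 to 5.65) and 2.44 times (1.94 to 3.06), in fat-rich spots 6.35 and 3.64 times, and in nerve-rich spots 4.49 and 2.25 times. In Col_nHA, however, Fabp4 held 168 of the 236 CPM of the fat list and Pmp22 124 of the 152 CPM of the nerve list. The lowest shares taken there were 0.062% and 0.035% of UMIs. In Blank, Pmp22 likewise held 180 of the 260 CPM of the nerve list, and the lowest share taken was 0.054%. The fat-rich spots of Col_nHA and the nerve-rich spots of both sections are therefore not read as fat or nerve. Acta2 in pericyte-rich spots stood at 0.742 times the level elsewhere in Blank and 1.08 times in Col_nHA. Pericyte-rich spots thus held more Myh11 in both sections with no enrichment of Acta2 of that size. The lists overlap in their spots, since fat-rich spots also held more Tpm2, at 2.45 and 5.28 times.

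Spots rich in wound matrix genes, such as Postn and Col3a1, were examined because myofibroblasts make them. In Blank these spots had more of all 5 co-varying genes, from 1.54 times for Tagln to 1.95 times for Cnn1, with Acta2 at 851 against 486 CPM, 1.75 times (1.69 to 1.81). Myh11 there was at 0.188 times (0.106 to 0.308), while in Col_nHA it was at 0.759 times (0.527 to 1.07), an interval that took in equality. In Col_nHA the spots richest in the list had no such excess, with Acta2 at 1.01 times (0.974 to 1.04), Cnn1 at 0.788 times (0.669 to 0.923) and Actg2 at 0.701 times (0.628 to 0.779). Over all spots, by contrast, the share of UMIs in the list correlated with Acta2 in both sections, at 0.33 in Blank and 0.43 in Col_nHA on the log scale used above. The values for Tagln were 0.29 and 0.26, for Myl9 0.25 and 0.35, for Actg2 0.20 and 0.26, and for Cnn1 0.10 and 0.18. The top 10% of Col_nHA spots therefore did not follow the trend over the section as a whole. The skeletal muscle share correlated with Acta2 at -0.20 in Blank and -0.47 in Col_nHA. The correlations with the matrix list were not repeated without muscle spots, and the part of those spots in them was not tested. Depth moved with this list in both sections, since spots rich in it had a median of 14720 UMIs against 9364 in Blank and 16816 against 13606 in Col_nHA, and its part in these values was not tested. Spots rich in macrophage genes also differed. Acta2 in them was at 517 CPM against 544 CPM elsewhere in Blank and at 359.9 against 985 CPM in Col_nHA, the latter 0.365 times (0.349 to 0.382). Cnn1 stood at 0.728 and 0.131 times. Over all spots the macrophage share correlated with Acta2 at 0.19 in Blank and 0.05 in Col_nHA. These spots were also deeper, with a median of 15478 UMIs in Blank and 22573 in Col_nHA. Endothelium-rich spots had less Acta2 than the rest in Blank, at 0.861 times (0.816 to 0.908), and more in Col_nHA, at 1.43 times (1.39 to 1.47).

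**Figure D5:**
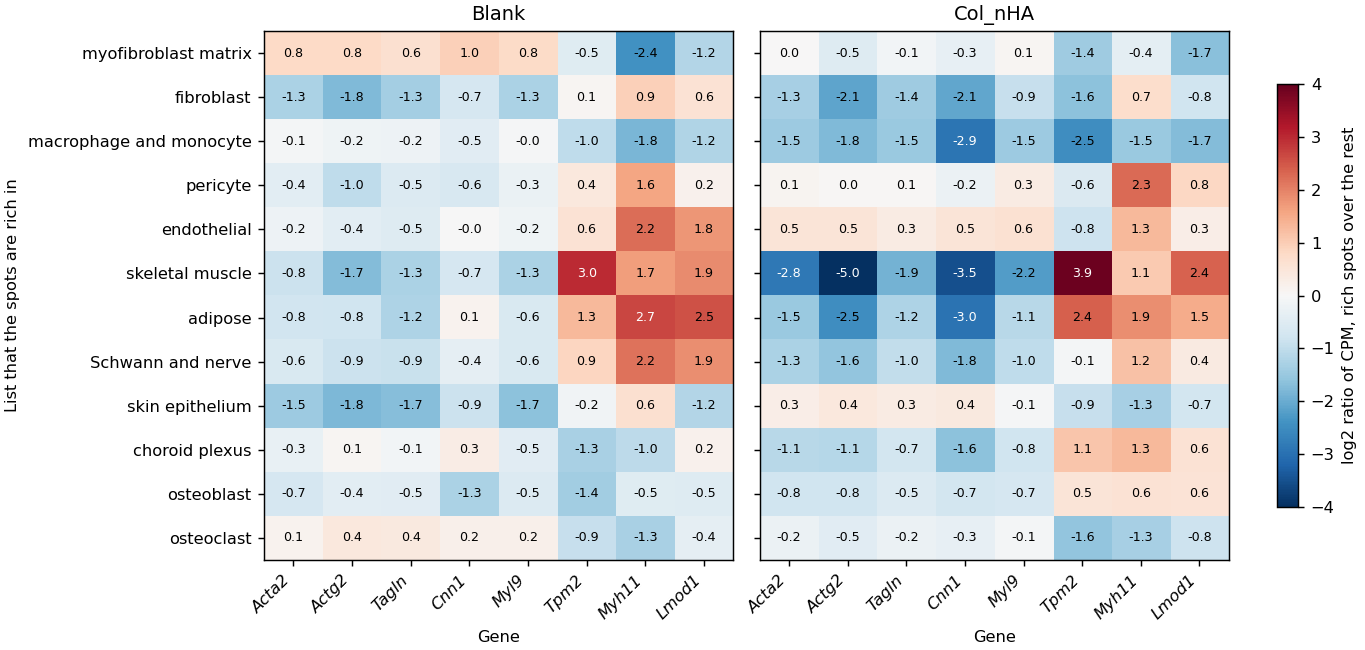
Colours and numbers give the log2 ratio of each gene's CPM in the 10% of spots richest in a marker list over the other spots, for Blank (225 spots) and Col_nHA (247 spots). Tpm2 is highest in the skeletal muscle row, at 7.93 and 15.2 times. Myh11 is high in the pericyte, endothelial, adipose and nerve rows, though not in these alone. In the matrix row of Blank the values for Acta2, Actg2, Tagln, Cnn1 and Myl9 are those of 1.54 to 1.95 times.

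Genes whose pattern was most like the sum of the 8 were found by the mean over both sections of Pearson's r across spots, among 6425 genes with at least 20 CPM in both. Tpm1, the alpha-tropomyosin gene, came first at 0.59, followed by the glycolytic gene Gapdh at 0.43 and the muscle phosphoglycerate mutase Pgam2 at 0.41. The next were the mitochondrial carrier gene Slc25a4, the muscle intermediate filament gene Des, Cox8b, Ldb3, the calsequestrin gene Casq1, the parvalbumin gene Pvalb, Mybpc1, Rtn2 and Hrc, at 0.34 to 0.40. Most of these are genes of striated muscle, and the summed level carries the Tpm2 of the muscle spots. For Acta2 alone the most similar were Myl9 at 0.59, Tagln at 0.58, the galectin gene Lgals1 at 0.54, the collagen chaperone gene Serpinh1 at 0.51, Actg2 at 0.50 and the ribosomal gene Rpl41 at 0.50. For Myh11 they were the matricellular gene Sparcl1 at 0.24, the latent TGF-beta binding gene Ltbp4 at 0.20, and Mustn1, Ckm, Fabp4 and the endothelial claudin gene Cldn5, each at 0.17.

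Other genes of smooth muscle contraction and its anchoring had ratios below those of Cnn1 and Actg2. Of 20 such genes 17 reached 10 CPM, and 12 of the 17 had a ratio above 1, with a median log2 of 0.25. None was at least 2-fold higher and 1 was at least 2-fold lower. Csrp1, a LIM protein of the actin cytoskeleton, had the highest ratio of the 17 at 1.80 (1.74 to 1.87), and Pdlim7 and Tpm1 stood at 1.62 and 1.52. Caldesmon, Cald1, was at 1.19 and smoothelin, Smtn, at 1.11. Mylk, which encodes the kinase that acts on Myl9, was at 0.804 (0.753 to 0.858), from 58.4 CPM in the Blank section and 47.0 CPM in the other. Pgm5, a protein of smooth muscle adherens junctions, was the 1 past 2-fold at 0.439 (0.383 to 0.502). Itga8, the alpha8 integrin of smooth muscle, stood at 0.380 (0.295 to 0.487) from 197 and 98 UMIs, below the CPM minimum. Kcnmb1, a potassium channel subunit of smooth muscle that was also below it, had 24 UMIs in Blank and 63 in Col_nHA, or 0.782 and 1.57 CPM, with an interval of 1.24 to 3.36 for its ratio. Des was at 0.786 and Pdlim3 at 0.656, so the list held genes on either side of 1.

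The regulator genes had a median log2 ratio of -0.03. Of 16 factors and signals 13 reached 10 CPM, of which none was at least 2-fold higher and 1, Klf4, was at least 2-fold lower. Srf, which encodes serum response factor, stood at 1.27 (1.18 to 1.36). Its cofactors Mrtfa and Mrtfb, listed in the files as Mkl1 and Mkl2, were at 1.15 (1.06 to 1.24) and 0.977 (0.900 to 1.06). Myocd, which encodes myocardin, had 2 UMIs in each section, too few for a ratio. Klf4, a zinc finger factor known to oppose the smooth muscle programme, was at 0.444 (0.414 to 0.475), from 74.5 CPM in Blank against 33.1 CPM with the material. The Klf4 ratio was not repeated without spots of other tissues such as skin, whose genes together also held fewer CPM in Col_nHA. What part the mix of tissues had in it was not tested. Among the ligands of TGF-beta, which induces Acta2 in fibroblasts, Tgfb1 stood at 1.29, Tgfb2 at 1.18 and Tgfb3 at 0.734. Its receptor genes Tgfbr1 and Tgfbr2 stood at 1.34 and 0.701. Notch3, the receptor of mural cells, was at 0.845.

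Markers of the cells that could hold the 8 genes were compared in the same way. Of 10 pericyte genes, 8 reached 10 CPM and none differed by 2-fold. Rgs5 stood at 186 and 189 CPM, a ratio of 1.01 (0.980 to 1.05), Mcam at 1.88 (1.79 to 1.98) and Kcnj8 at 0.678 (0.618 to 0.744). The 12 endothelial genes had a median log2 ratio of 0.31, with Kdr at 1.68 and Plvap at 1.23, and none past 2-fold. The 12 wound matrix genes had a median of -0.15, with Col3a1 at 0.745, Fn1 at 0.940, Fap at 0.640 and Loxl2 at 1.56, and none past 2-fold. The 12 skeletal muscle genes had a median of 1.46 and 8 were at least 2-fold higher in Col_nHA. No gene of the pericyte, endothelial or matrix lists at 10 CPM or more thus had a ratio as high as those of Cnn1 and Actg2. What part the mix of cells had in these ratios was not tested.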

How the data were processed

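Gene expression was measured in 2 sections, 1 per group. The authors deposited unnormalized UMI counts for every array barcode, and nothing had been removed for lying off the tissue. They used Space Ranger and build mm10, per the submitters' processing notes, and the matrices name Cell Ranger 4, per the file headers. No Space Ranger version is stated. By their description the samples are fresh-frozen and spatial, although the extraction text in the labels is that of a droplet single-cell library. No image or spot coordinates were used.

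The members, marker lists and tests were chosen with earlier results of these data known. All 8 members were named. From the smooth muscle, regulator and pericyte lists any gene could be named, and from the other lists the 2 with most UMIs and, at 10 CPM or more, the 2 farthest from equality. Any gene of the isoform families could be named, and not all of them were. The 12, 6 and 6 genes closest in pattern to the sum, to Acta2 and to Myh11 were all named. Ratios carry exact conditional binomial intervals, CPM exact Poisson and shares Clopper-Pearson intervals. Spots rich in a list were the top 10% by share of UMIs. Gene positions and promoter windows are from RefSeq tables on GRCm38.p6, and the count files were made on mm10, the same assembly. The calculations were tested on simulated data. Alternatives were other UMI thresholds, scalings, spot weights, thinning depths, correlation measures and spots left out. The correlations without spots of other tissues were added after the data were seen. Python 3.11.15, numpy 2.4.6, scipy 1.17.1, pandas 2.3.3 and matplotlib 3.10.9 were used, and edgeR 4.0.16 under R 4.3.3 gave TMM factors.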

Additional observations from a re-analysis of the deposited data

How the results depend on the processing

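For the ratios, 10 settings other than the reported one were tried: every barcode, thresholds of 1.5 and 0.75 times, 3 scalings, the mean of per-spot CPM, and 3 ways of leaving out spots of other tissues. Under each of them the log2 ratios of Acta2, Tagln, Cnn1, Actg2, Myl9, Lmod1 and Tpm2 stayed above 0 and that of Myh11 below it. With the mean of per-spot CPM, which weights spots equally, the median log2 ratio was 0.84 in place of 0.67, 3 genes were at least 2-fold higher and 1, Myh11 at -1.02, was at least 2-fold lower. The median was 0.53 without the spots with over 2% of UMIs in skeletal muscle genes. It was 0.44 without those with over 2% in the 5 lists of other tissues together. Tpm2 ranged from 0.32 without the muscle spots to 1.03 with per-spot means, and Myh11 from -1.02 to -0.32. Cnn1 stayed between 1.68 and 1.78. With background genes of at least 1 or 50 CPM in place of 10, 2.83% or 2.09% of genes were at least 2-fold higher and 8.02% or 2.79% at least 2-fold lower. Thinning to 2000 UMIs lowered the correlations, to a median of 0.098 in Blank and 0.22 in Col_nHA for the pairs among the 5 co-varying genes, and with ranks these were 0.33 and 0.55.

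Depth limits Lmod1, Myh11 and, in Blank, Cnn1 most. Lmod1 and Myh11 had 110 to 500 UMIs per section, and Cnn1 had 450 in Blank. No paired analysis was possible because each group held 1 section.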

Other observations

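The relatives of the 8 genes give the level of the smooth muscle forms within each protein family, counted as shares of the family's UMIs with no correction for length. Among 6 actins, Acta2 made up 5.30% (5.22 to 5.38) in Blank and 6.17% (6.11 to 6.23) in Col_nHA. Actg2 made up 0.445% and 0.797%. The cytoplasmic actin Actb was the largest at 51.7% and 44.3%, and the skeletal muscle actin Acta1 held 19.7% and 23.8%. Cnn1 made up 2.12% (1.93 to 2.33) of calponin UMIs in Blank and 5.79% (5.54 to 6.05) in Col_nHA, while the widely expressed Cnn2 stood at a ratio of 1.31 and Cnn3 at 0.976. Tagln held 31.7% of transgelin UMIs in Blank and 29.2% in Col_nHA, and its relative Tagln2, a gene of many cell types including leukocytes, had a ratio of 1.47. Transgelin was thus the family here whose smooth muscle form made up less of it in Col_nHA although its level was higher.

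The myosin families showed the divergence of light and heavy chain again. Myl9 made up 23.8% of the regulatory light chains in Blank and 30.9% in Col_nHA, against 58.4% and 55.2% for Myl12a and 17.9% and 13.8% for Myl12b, the light chains of non-muscle myosin. Myh11 made up 4.78% of the smooth and non-muscle heavy chains in Blank and 2.73% in Col_nHA, with intervals that did not overlap, where the non-muscle heavy chain Myh9 held 77.8% and 84.4%. Of the leiomodins, Lmod3 of skeletal muscle held 59.3% and 58.5%, and the share of Lmod1 had an interval of 12.5 to 17.8% in Blank and 18.6 to 24.1% in Col_nHA. Tpm2 made up 25.5% and 29.9% of tropomyosin UMIs, second to Tpm1 at 42.7% and 41.6%.

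When spots were ordered by the summed level of the 8 genes and cut into 10 bins of 224 to 248 spots, the makeup of the sum shifted at the top. In Col_nHA, Acta2 made up 45.4% of the sum in bin 8, 37.6% in bin 9 and 22.1% in the highest bin, where Tpm2 made up 58.1%. In Blank, Acta2 made up 41.3% in bin 9 and 34.4% in the highest, where Tpm2 made up 37.7%. UMIs of Myh11 per 100 of Acta2 stood at 5.82 (2.86 to 10.7) in the lowest bin of Blank, 1.59 (1.22 to 2.05) in bin 9 and 3.16 (2.71 to 3.68) in the highest. In Col_nHA they stood at 1.68 (0.765 to 3.22) in the lowest bin, 0.406 (0.279 to 0.571) in bin 9 and 1.64 (1.34 to 1.98) in the highest. The ratio was thus lowest in bin 9 in both sections and higher again in the top bin. The bins are ordered by a sum to which Acta2 and Tpm2 contribute most, so the ratio is a description and not independent of that order.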
